A study of Mus musculus with 6 samples.

Results

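Genes that run the mechanical part of cell division were examined in liver RNA of obese diabetic mice. The set holds 50 genes of chromosome condensation, the kinetochore, the spindle, the spindle checkpoint and cytokinesis, and was taken as every probe set that the platform annotation names with exactly 1 of these symbols. Of the 50 genes, 48 were measured, by 93 of 22626 probe sets, and the array names 12393 genes in all. The annotation names none for Cdca8 and Espl1, which were left out. All 6 animals were male KK/H1J mice, an inbred strain with polygenic obesity and type 2 diabetes, 12 to 14 weeks old and weighing about 35 g. Adenovirus was given through the tail vein at the same stated dose to both groups, so the controls had received a virus too. In 3 mice (23, 28 and 36) it carried bisphosphatase-deficient PFK-2/FBPase-2 (BPD), a form of the enzyme that makes and breaks down fructose-2,6-bisphosphate, an activator of glycolysis, and in 3 mice (22, 29 and 31) green fluorescent protein (GFP). The labels do not name the promoter that drives either transgene or the liver cells that took up the virus. Livers were taken 7 days later, and the RNA of each mouse was hybridised to an array of its own.

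Mitosis depends on a small set of machines that are built anew in each division. Condensins and topoisomerase II compact the chromosomes, kinetochores tie them to spindle microtubules, the spindle checkpoint holds back anaphase until all are attached, and the anaphase-promoting complex then releases the sisters before a contractile ring divides the cell. Most of these genes are transcribed late in the cell cycle and are low in resting tissue. Adult hepatocytes seldom divide but can re-enter the cycle after loss of liver mass, and they often become polyploid when they pass through it without cytokinesis.

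Of the 48 measured genes, 44 rose in BPD livers, 0 fell and 4 did not pass the test (limma, adjusted p under 0.05 over all probe sets). At an unadjusted p under 0.05, 0 of the 48 were lower. Over all 12393 genes, 5.7% were called higher and 12.7% lower. The median log2 difference was 1.68 over the 48 genes and -0.23 over all genes. The rise was at least 2-fold in 42 of the 44, against 4.12% of all genes, and at least 4-fold in 17, a level not counted over all genes. In 44 genes every BPD liver lay above every GFP liver on the centred log2 scale, as did 11.3% of all genes, while 32.0% of all genes lay wholly below. Under the scaling as deposited 44 were called too (10.9% of all genes), and likewise 44 after quantile normalization (7.85% of all genes). Over all genes the calls were 707 higher and 1578 lower here, 1355 and 790 under the deposited scaling, and 973 and 893 after quantile normalization. When 1 liver was dropped, the member count was 34 (BPD 28), 39 (BPD 23), 40 (GFP 31), 41 (GFP 22), 43 (GFP 29) or 44 (BPD 36). In the same order, 309, 405, 453, 535, 610 and 809 of all 12393 genes were called higher. Since these are whole livers, more cells in division and more RNA per cell cannot be told apart.

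The signals given below are those deposited, which are linear and not centred, while the log2 differences come from values centred on each array's median. Array medians were higher in BPD (174 to 197) than in GFP livers (135 to 157), so a ratio of deposited signals exceeds the fitted fold. At signals below or near 16.3, the constant added before taking logarithms, fitted differences are held down. Of the 48 genes, 38 passed a filter on mean signal (98.8) and 10 did not, and among these 38 the test on filtered probe sets called 35 (8.75% of all genes that passed). In 25 the GFP mean was under that level, and in 3 the BPD mean was. All 48 were kept in the test, since a gene low in resting liver would pass such a filter through the BPD group. The liver identity of the samples was plain, since all 17 measured hepatocyte markers passed this filter in both groups, with albumin (Alb) at 16231 ± 1260 (SD, n = 3) in the BPD group and 19217 ± 1848 (SD, n = 3) in the GFP group.

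Promoter sequences are shown for 10 genes, because late cell cycle genes share a known promoter layout. In it a cell cycle genes homology region (CHR), with the letters TTTGAA, lies near the start of transcription with CCAAT boxes upstream of it, and binds the DREAM and MuvB complexes. The stretches are the 120 bases before the RefSeq start (GRCm38.p6), read 5′ to 3′ in the direction of the gene, with matches to TTTGAA and CCAAT on either strand in capitals (TTCAAA and ATTGG are the same motifs read on the other strand). The first 7 belong to genes that rose at least 2-fold, Bub3 rose by the smallest margin, Zwint was not called, and Birc5 rose without either motif in its window.
Ube2c (chr2:164769809-164769928, plus strand): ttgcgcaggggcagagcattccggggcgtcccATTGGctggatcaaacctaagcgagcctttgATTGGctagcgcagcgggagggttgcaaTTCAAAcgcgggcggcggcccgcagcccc
Cdc20 (chr4:118437344-118437463, minus strand): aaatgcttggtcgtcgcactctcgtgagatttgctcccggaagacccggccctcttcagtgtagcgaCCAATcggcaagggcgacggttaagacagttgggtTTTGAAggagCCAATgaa
Top2a (chr11:99024190-99024309, minus strand): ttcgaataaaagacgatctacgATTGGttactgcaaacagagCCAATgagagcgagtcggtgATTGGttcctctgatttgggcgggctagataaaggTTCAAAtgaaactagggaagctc
Kif22 (chr7:127042421-127042540, minus strand): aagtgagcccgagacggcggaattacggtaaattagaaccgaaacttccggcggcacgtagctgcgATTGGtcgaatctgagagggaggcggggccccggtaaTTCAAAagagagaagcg
Kif11 (chr19:37376262-37376381, plus strand): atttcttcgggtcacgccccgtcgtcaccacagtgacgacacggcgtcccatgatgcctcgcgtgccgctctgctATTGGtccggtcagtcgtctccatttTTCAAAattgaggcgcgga
Cks1b (chr3:89418292-89418411, minus strand): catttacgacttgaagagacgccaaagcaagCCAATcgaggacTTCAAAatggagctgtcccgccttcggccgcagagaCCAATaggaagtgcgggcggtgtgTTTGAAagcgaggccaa
Mki67 (chr7:135716380-135716499, minus strand): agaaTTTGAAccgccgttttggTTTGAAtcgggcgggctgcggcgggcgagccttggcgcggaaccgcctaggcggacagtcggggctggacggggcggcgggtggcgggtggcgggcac
Bub3 (chr7:131560250-131560369, plus strand): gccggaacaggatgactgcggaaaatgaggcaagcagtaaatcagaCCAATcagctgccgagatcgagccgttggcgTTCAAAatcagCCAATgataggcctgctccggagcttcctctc
Zwint (chr10:72654726-72654845, plus strand): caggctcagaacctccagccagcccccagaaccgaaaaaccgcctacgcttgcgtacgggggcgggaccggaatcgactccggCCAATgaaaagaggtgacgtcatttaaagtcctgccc
Birc5 (chr11:117849117-117849236, plus strand): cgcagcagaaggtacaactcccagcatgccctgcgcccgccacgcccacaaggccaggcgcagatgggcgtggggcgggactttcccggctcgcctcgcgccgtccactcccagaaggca
In Ube2c, Cdc20, Top2a, Kif22, Kif11 and Cks1b a CHR begins 17 to 29 bases before the start, with a CCAAT box farther upstream. In Mki67 the nearest begins 98 bases before the start, and in Bub3 it begins 43 bases before it. The printed stretch of Zwint holds a CCAAT box and no TTTGAA, and that of Birc5 holds neither. The printed genes were picked as examples, so they do not show how common an upstream CHR is.

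Of the 48 genes, 39 have a RefSeq promoter entry of 300 bases (250 before and 50 after the start, the most upstream start where there are several). TTTGAA occurred on either strand in 26 of the 39 (66.7%), against 13.0% of 9887 array genes with an entry. CCAAT occurred in 29 (74.4%) against 38.25%, and both together in 23 (59.0%) against 5.21%. In 23 of the 26 genes a TTTGAA began within 50 bases of the start, on either side of it. In most of these the only match lay after the start, as in Cenpa (16 bases after it), Plk1 (30) and Aurka (32). In Smc2 and Ect2 the near match lay after it too. A near match before the start was found in Top2a, Bub3, Kif11, Kif22, Prc1, Cdc20, Ube2c and Cks1b, all printed above except Prc1. The share of all genes with a match this near was not computed. Among other mitotic genes on the array 19 of 45 held TTTGAA (42.2%), and among G1/S genes 6 of 33 (18.2%). CCAAT and its reverse form can overlap each other, and TTTGAA can overlap a CCAAT box by 1 base. A match describes these letters only, and binding was not measured.

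**Figure D1:**
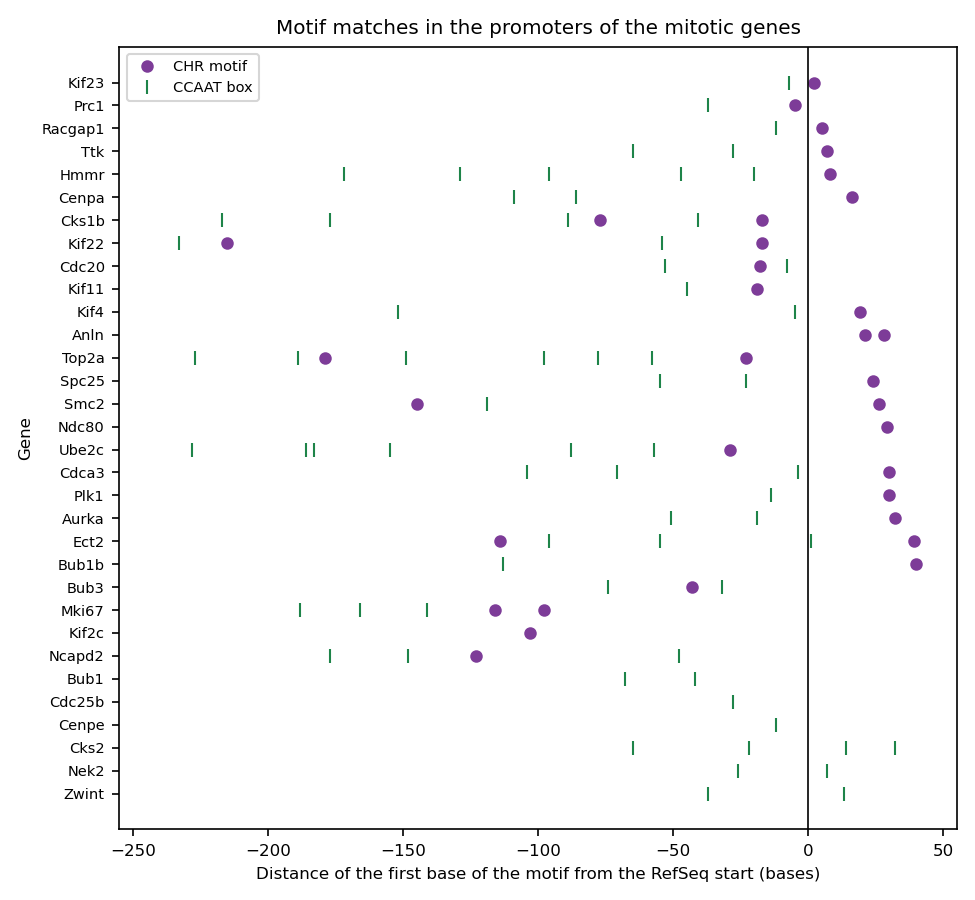
Each row is a mitotic gene with a match, and the horizontal axis gives the distance in bases of the first base of a motif from the RefSeq start. Purple dots are CHR motifs and green ticks CCAAT boxes. In 23 genes a dot lies within 50 bases of the start, on either side of it.

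Genes of chromosome condensation rose in all 6 cases. Top2a, the topoisomerase that untangles sister chromatids, gave signals of 891, 1079 and 682 in BPD livers 23, 28 and 36 and of 116, 129 and 68.2 in GFP livers 22, 29 and 31. Its log2 difference was 2.61 ± 0.24 (SE; limma adjusted p = 0.00108). A second Top2a probe set lay below the added constant in each liver and was not called (-0.27), and the mean of both was 1.17 (limma adjusted p = 0.00614). Mki67, which encodes the proliferation marker Ki-67 that coats mitotic chromosomes, was at 1111, 963 and 741 in BPD and 108, 113 and 38.5 in GFP livers, a rise of 3.00 ± 0.33 (limma adjusted p = 0.00167). Both genes were lowest in liver 36 of the BPD group and in liver 31 of the controls, and the groups lay far apart. The condensin genes moved less and evenly: Smc2 rose by 1.67 ± 0.18, Smc4 by 1.42 ± 0.21, Ncapd2 by 1.55 ± 0.25 and Ncaph by 1.34 ± 0.20. These are core ATPases (Smc2, Smc4) and condensin I subunits (Ncapd2, Ncaph) of the same ring. The signal of Ncaph was 418, 425 and 415 in BPD livers, nearly the same in each, and 148, 112 and 112 in GFP livers.

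Kinetochore genes rose in 5 of 6 cases. The NDC80 complex grips microtubule ends, and its subunit gene Nuf2 had signals of 203, 229 and 196 in BPD and 12.5, 41.5 and 5.73 in GFP livers. This was a rise of 2.46 ± 0.33 (limma adjusted p = 0.00287), held down by GFP values under the added constant. Spc25 of the same complex was bright, at 1130, 1009 and 1105 against 246, 277 and 179, and rose by 1.85 ± 0.18. Its second probe set was at 0.24 and was not called, and the mean of both was 1.05. Ndc80 rose by 1.39 ± 0.33 from signals of 29.7, 24.6 and 4.90 to 83.8, 127 and 77.8 (limma adjusted p = 0.025). Its call was lost when BPD 23 (1.43, limma adjusted p = 0.0602), BPD 28 (1.26, 0.101) or GFP 31 (1.06, 0.0586) was dropped, and when the Gapdh ratio entered the fit (1.17, 0.062). With the larger constant Ndc80 was at 0.83, Cenpe at 0.62 and Melk at 1.28, all 3 past the threshold. Cenpa, the histone H3 variant that marks centromeres, rose by 1.59 ± 0.24. Cenpe, a kinetochore motor, rose by 1.12 ± 0.27 (limma adjusted p = 0.024), from 15.3, 20.8 and 11.0 to 88.2, 78.8 and 46.1. Dropping a single liver ended the call of Cenpe for BPD 23 (0.95, limma adjusted p = 0.0711), BPD 28 (1.10, 0.0879), GFP 22 (1.17, 0.0586) and GFP 31 (1.03, 0.0777).

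The exception was Zwint, a scaffold that helps to recruit checkpoint proteins to the kinetochore. Its brightest probe set read 1248, 1155 and 1524 in BPD and 943, 1045 and 822 in GFP livers. Although the deposited signals did not overlap, the centred values did, and the difference was 0.17 ± 0.17 (limma adjusted p = 0.501). None of its 6 probe sets was called, with differences from -0.83 to 0.62. In GFP livers Zwint was the brightest of the 48 genes by deposited signal, although signals of different probe sets are not set against each other as levels.

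All 5 checkpoint genes were called, with a wide range. Bub1, a kinase that docks on unattached kinetochores, had signals of 117, 182 and 142 in BPD livers and 4.99, 14.7 and 2.85 in GFP livers. Every GFP value lay under the added constant, and the difference was 2.49 ± 0.25 (limma adjusted p = 0.00133). With a smaller constant (3% of the median) it was 3.39 and with a larger one (30%) 1.53. The other probe set of Bub1 was at -0.49 and was not called, and the mean of both was 0.997 (limma adjusted p = 0.0207). Bub1b, which encodes the checkpoint protein BubR1, went from 4.61, 17.4 and 11.8 to 197, 267 and 152, a rise of 2.70 ± 0.26 (limma adjusted p = 0.00121), or 3.43 with the smaller constant. The groups did not overlap in either gene, and control livers were close to the lower end of the array. Mad2l1, the inhibitor of CDC20 in the checkpoint, rose by 1.66 ± 0.22, and the kinase gene Ttk by 1.77 ± 0.24. Bub3, which also works outside the checkpoint and is expressed in many resting cells, was at 1521, 1841 and 1262 against 908, 852 and 774. Its difference of 0.54 ± 0.16 sat at the threshold (limma adjusted p = 0.04999) and was lost when BPD 23 (0.51, limma adjusted p = 0.123), BPD 28 (0.46, 0.173), GFP 22 (0.64, 0.0582), GFP 29 (0.49, 0.121) or GFP 31 (0.49, 0.136) was dropped. It was lost too with the smaller constant (0.53, limma adjusted p = 0.0568), a robust fit (0.54, 0.0599) and the Gapdh covariate (0.52, 0.109), while the deposited scaling gave 0.84 (0.0115) and quantile normalization 0.81 (0.0179). Of the 4 probe sets of Bub3 this was the one called, while the rest were at -0.45, -0.14 and -0.26, and the mean over all of them was -0.078 (limma adjusted p = 0.773).

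The chromosomal passenger complex corrects faulty attachments and later helps to divide the cell. Its 3 measured genes rose, namely Birc5 (survivin) by 2.57 ± 0.37, the scaffold Incenp by 2.19 ± 0.26 and the kinase Aurkb by 1.45 ± 0.22. Birc5 read 860, 808 and 561 in BPD and 92.1, 162 and 38.8 in GFP livers (limma adjusted p = 0.00385). Among the GFP livers, 29 was highest and 31 lowest. Incenp read 877, 710 and 446 against 105, 121 and 83.9 in its brightest probe set, while its other probe sets were at 1.62 (adjusted p = 0.0525) and 0.40 and were not called. With probe sets of the s and x kind set aside, which may match more than 1 transcript, Incenp did not pass (1.62, limma adjusted p = 0.0523), and the mean over its probe sets was 1.40. Both probe sets of Aurkb are of these kinds, so Aurkb had no value with them set aside.

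The other 6 mitotic kinase genes all rose. Plk1, which acts from mitotic entry to cytokinesis, had signals of 419, 403 and 283 in BPD and 65.5, 30.002 and 44.0 in GFP livers, a rise of 2.33 ± 0.30 (limma adjusted p = 0.00252). Aurka, the spindle pole kinase, read 454, 593 and 329 against 92.4, 121 and 67.3, a rise of 1.80 ± 0.25. Plk4, which controls centriole duplication, rose by 1.68 ± 0.29 (1.07 with s and x probe sets set aside), Nek2, a kinase of centrosome separation, by 1.26 ± 0.23, and Pbk by 1.95 ± 0.27. The single probe set of Pbk is of the s kind. Melk rose by 2.08 ± 0.41 with the widest error of these 6, since its GFP signals were 38.7, 4.17 and 5.56, and its call was lost when BPD 28 was dropped (2.06, limma adjusted p = 0.0514). In all 6 genes liver 36 was the lowest of the BPD livers.

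**Figure D2:**
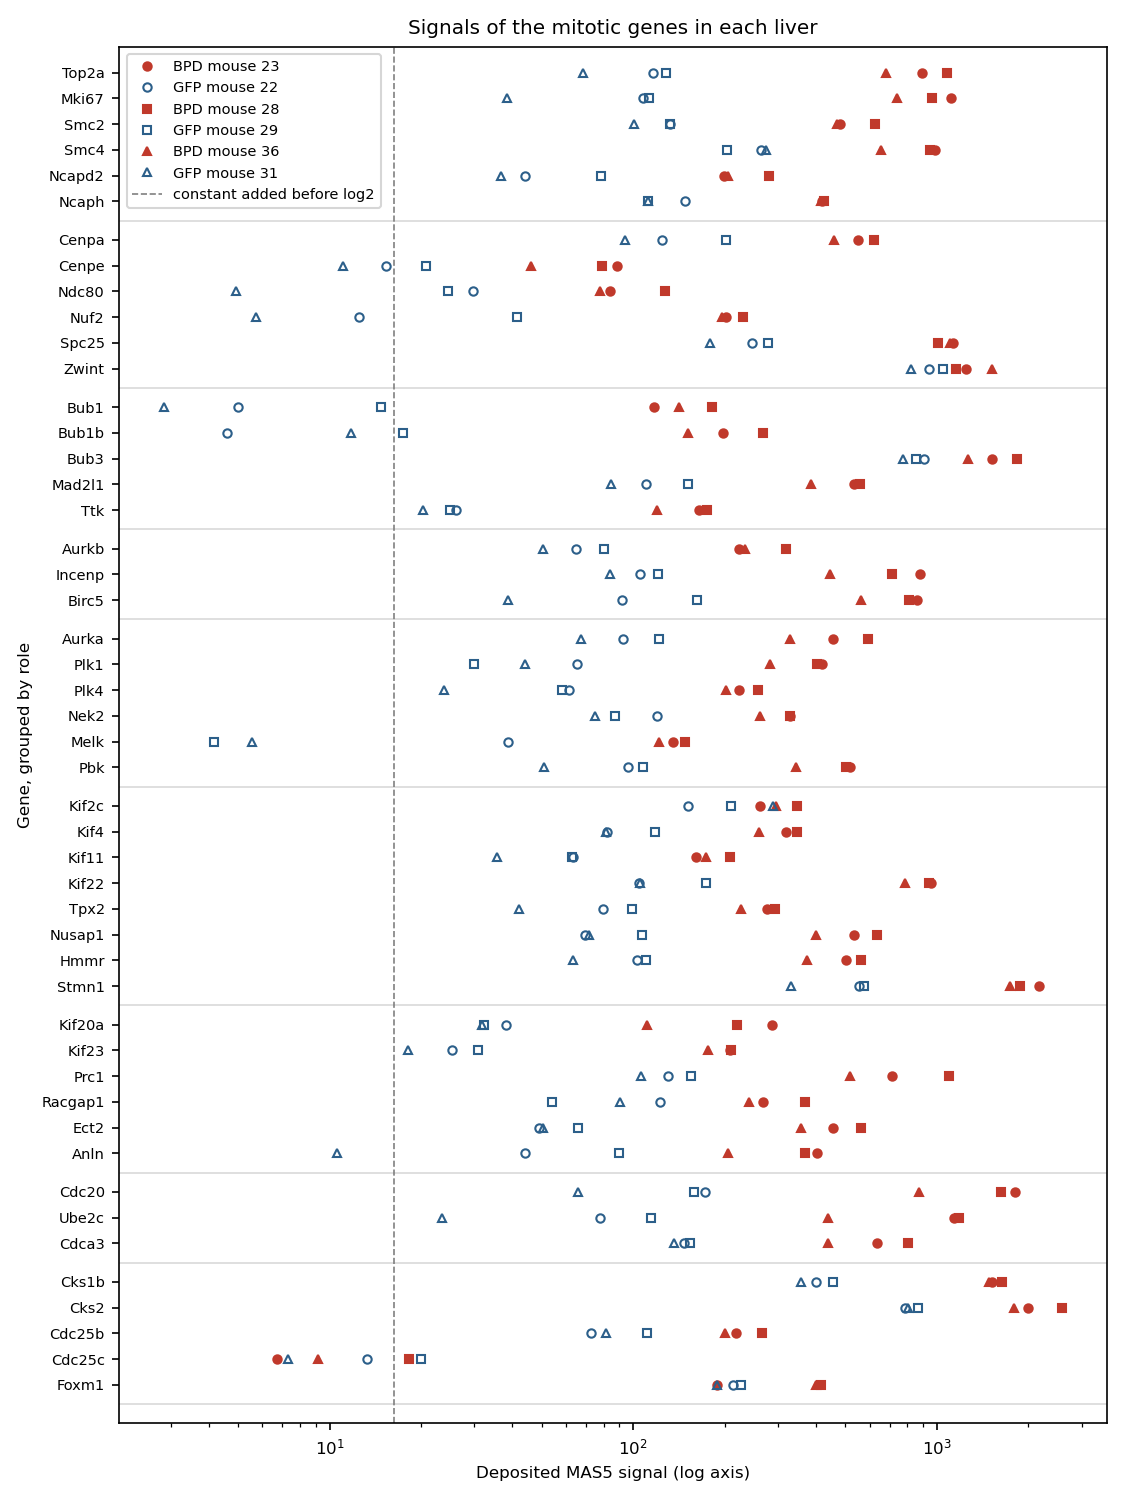
Deposited MAS5 signal (log axis) of each mitotic gene in each liver, grouped by role, with BPD livers as filled red symbols, GFP livers as open blue symbols and the added constant as a dashed line. Most rows show red symbols to the right of all blue ones; Cdc25c, Foxm1 and Kif2c overlap, and in Bub1 all 3 GFP signals lie left of the constant.

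Motor and microtubule genes rose in 7 of 8 cases. Kif22, a chromokinesin that pushes chromosome arms, rose by 2.38 ± 0.19 (limma adjusted p = 0.00072), with signals of 954, 939 and 785 against 104, 174 and 106. This is an x probe set, and with s and x probe sets set aside Kif22 was at 1.54 (limma adjusted p = 0.0185). Nusap1 (2.14 ± 0.21) and Hmmr (1.90 ± 0.24), which bundle or organise spindle microtubules, rose too, and all 4 probe sets of Hmmr were called. The second probe set of Nusap1 was at 0.65 and was not called, and the mean of both was 1.39. Stmn1 encodes stathmin, a microtubule-destabilising protein, and read 2175, 1878 and 1735 against 555, 573 and 331, a rise of 1.68 ± 0.22. Tpx2, which activates Aurora A on the spindle, rose by 1.40 ± 0.27 (2.62 in its dimmer probe set), the chromokinesin Kif4 by 1.27 ± 0.20 and Kif11, the motor that pushes spindle poles apart, by 1.21 ± 0.25. With BPD 28 dropped, Tpx2 (1.38, limma adjusted p = 0.0555) and Kif11 (1.16, adjusted p = 0.0677) did not pass.

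Kif2c, the kinesin that takes microtubules apart at centromeres, gave different answers by probe set. Its brightest probe set overlapped between the groups, at 261, 345 and 295 in BPD and 152, 210 and 289 in GFP livers (0.17 ± 0.23, limma adjusted p = 0.621). Another read 352, 330 and 220 against 38.7, 54.0 and 55.8 and rose by 1.95 ± 0.24 (limma adjusted p = 0.00224), and a further one rose by 0.87 ± 0.24 (adjusted p = 0.0421). Averaged over its 4 probe sets, Kif2c passed (0.75, limma adjusted p = 0.0283).

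Cytokinesis genes rose in all 6 cases. Ect2, the exchange factor that switches on RhoA at the cell equator, read 455, 563 and 357 in BPD and 49.0, 65.7 and 50.4 in GFP livers, a rise of 2.42 ± 0.21 (limma adjusted p = 0.00083). Kif23, the motor of the centralspindlin complex, rose by 2.09 ± 0.23, from 25.3, 30.7 and 18.1 to 208, 209 and 176. The other Kif23 probe sets, both dim, were at 0.23 and 0.46 and were not called, and the mean over all 3 was 0.93 (limma adjusted p = 0.0205). Prc1, the bundler of the central spindle, rose by 2.08 ± 0.25, with signals of 713, 1097 and 516 against 130, 154 and 106. These genes were high in each BPD liver and low in each control. Anln, the scaffold of the contractile ring, rose by 2.26 ± 0.46, with GFP signals as far apart as 89.7 and 10.6. Kif20a, a motor of the central spindle, read 286, 220 and 111 against 38.2, 32.4 and 31.8 and rose by 1.75 ± 0.33. Racgap1, the other centralspindlin subunit, rose by 1.28 ± 0.31 (limma adjusted p = 0.0255), and both of its probe sets were called. With BPD 28 dropped, Anln (2.20, limma adjusted p = 0.0614), Kif20a (1.72, 0.0511) and Racgap1 (1.16, 0.111) did not pass, and neither did Racgap1 with BPD 23 (1.30, 0.0666) or GFP 31 (1.33, 0.0577) dropped, or with the Gapdh covariate (1.27, 0.0612).

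All 3 measured proteolysis genes rose. Ube2c, the ubiquitin-conjugating enzyme of the anaphase-promoting complex, had signals of 1139, 1187 and 438 in BPD and 78.0, 114 and 23.4 in GFP livers. It rose by 3.14 ± 0.48, or 8.84-fold (limma adjusted p = 0.00455). Cdc20, the activator that this complex needs for anaphase, read 1802, 1621 and 875 against 172, 158 and 65.7 and rose by 3.01 ± 0.36, or 8.07-fold (limma adjusted p = 0.00216), in its brightest probe set. Of its other probe sets 1 rose by 2.02 and 1 was at 0.02 and was not called, and the mean over probe sets was 1.68 (limma adjusted p = 0.00429). The brightest Cdc20 probe set and the one at 0.02 are of the x kind, and the one at 2.02 is not. In both genes liver 36 stood well below livers 23 and 28, and liver 31 well below the other controls, yet no BPD value reached a GFP value. Cdca3, a trigger of mitotic entry that the complex degrades, rose by 1.64 ± 0.21 in its brightest probe set. Its remaining probe sets were at -0.16 and -0.83 and were not called, and the mean over probe sets did not pass (0.22, adjusted p = 0.367).

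Among partners and activators of cyclin-dependent kinases the picture was mixed, with 3 of 5 genes called. Cks1b and Cks2 encode small proteins that dock on cyclin-dependent kinases. Cks1b was at 1517, 1637 and 1490 against 400, 454 and 357 and rose by 1.60 ± 0.13 (limma adjusted p = 0.00075), and Cks2 at 2001, 2584 and 1792 against 788, 864 and 802, a rise of 1.04 ± 0.14 (adjusted p = 0.00291). Both were bright in controls. The phosphatase gene Cdc25b rose by 0.93 ± 0.20 (limma adjusted p = 0.0177), but did not pass with BPD 23 (0.92, 0.0527), BPD 28 (0.88, 0.0886) or GFP 22 (0.87, 0.0537) dropped. Its relative Cdc25c gave 6.70, 18.3 and 9.19 in BPD and 13.3, 20.0 and 7.31 in GFP livers, so its single probe set was near or below the added constant in each liver and the groups overlapped (-0.41 ± 0.23, limma adjusted p = 0.24). Foxm1, the transcription factor that drives many mitotic genes, read 189, 414 and 401 against 213, 226 and 188 in its brightest probe set. Livers 28 and 36 were high and liver 23 was within the control range, and the difference was 0.27 ± 0.27 (limma adjusted p = 0.518). None of the 4 Foxm1 probe sets was called, with differences from -0.59 to 0.97.

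**Figure D3:**
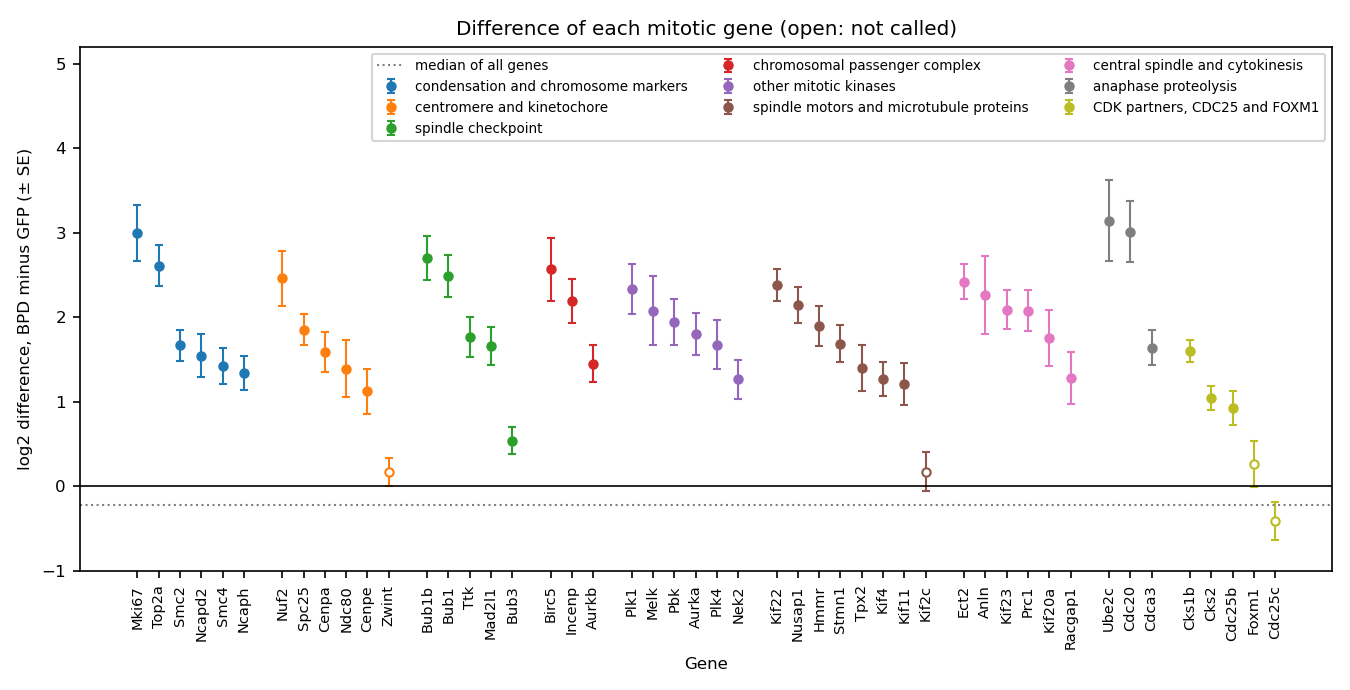
Log2 difference between BPD and GFP livers of each mitotic gene with its SE (limma, 3 mice per group), coloured by role and sorted within it; open symbols were not called, and the dotted line is the median of all genes (-0.23). In this fit Ube2c and Cdc20 stand highest, Cdc20 through an x probe set (2.02 in its other called probe set). With the smaller constant Bub1b (3.43) and Bub1 (3.39) lie above Ube2c (3.37). Zwint, Kif2c, Foxm1 and Cdc25c are the 4 open symbols.

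By probe set, 64 of the 93 were called higher, 0 lower and 29 were not called, against 5.27% of all probe sets called higher and 10.8% lower. Of the 25 genes with several probe sets, 11 had each of them called, 12 were mixed and 2 (Foxm1 and Zwint) had none called. Of the 29 probe sets not called, 19 failed the filter on low signal. Among the 38 member probe sets under that filter, 19 were called, a share not counted over all probe sets under it.

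**Figure D4:**
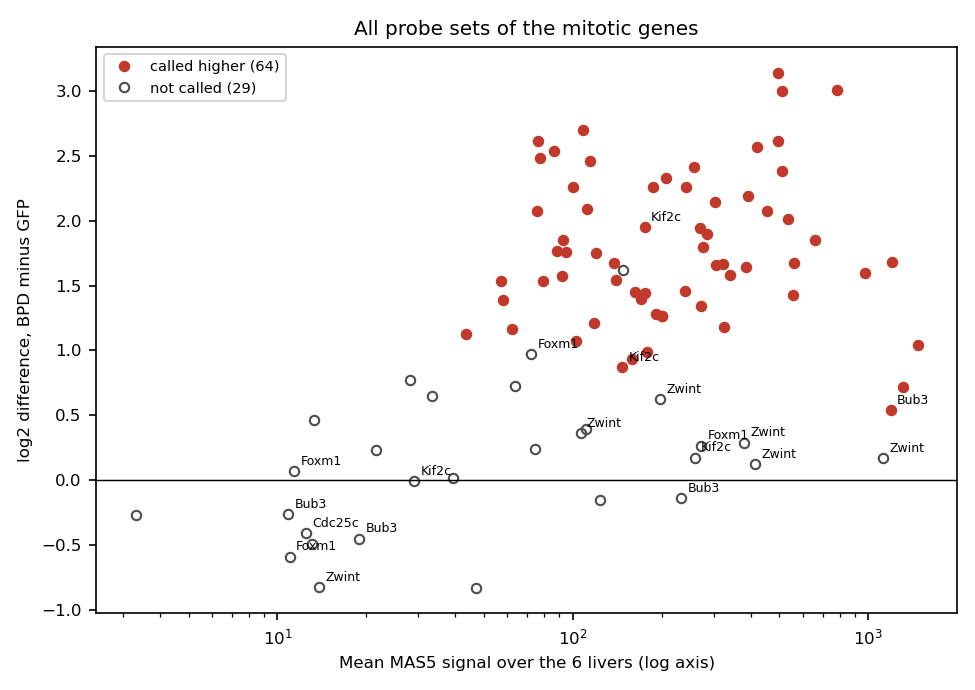
Mean deposited signal over the 6 livers (log axis) and log2 difference of all 93 probe sets of the mitotic genes; filled red points were called higher and open points were not called. Uncalled probe sets gather at low signal, while the brightest of Zwint lies near 0 at a high signal.

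The BPD livers were not alike. Liver 36 was the lowest of them in 36 of the 48 genes, against 3826 of all 12393 genes. Over all genes its median lay 0.04 log2 units above the mean of livers 23 and 28, and over the 48 genes 0.28 below it. By role, that gap was widest in the proteolysis genes (-0.89) and in cytokinesis (-0.56), and narrow among kinase partners (-0.08). Relative to the GFP mean, the median over the 48 genes was 1.87, 1.79 and 1.54 in BPD livers 23, 28 and 36. In GFP livers 22, 29 and 31 it was 0.15, 0.15 and -0.23, and liver 31 was the lowest control in 38 genes, against 3677 of all 12393 genes. For the 38 measured G1/S genes, given for context, the order of the BPD livers differed: the medians were 1.06, 1.36 and 1.42, and liver 36 was lowest in 8. This difference in order between the lists was not tested.

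**Figure D5:**
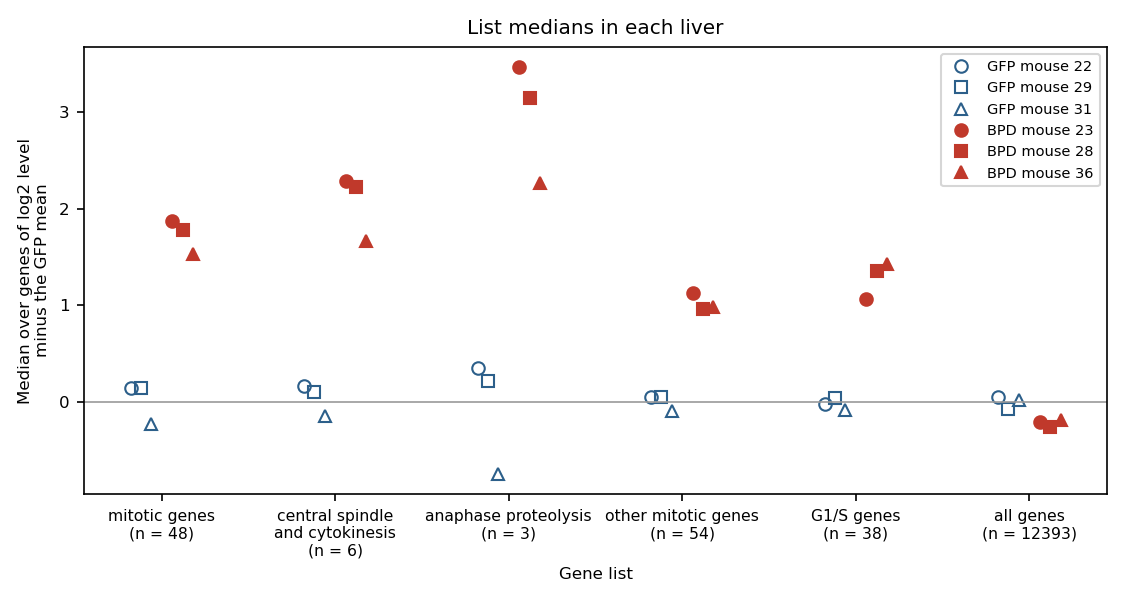
Median over each gene list of the centred log2 level minus the GFP mean, with 1 symbol per liver (filled red BPD, open blue GFP). BPD liver 36 (triangle) is the lowest BPD liver for the mitotic genes (1.54) and the highest for G1/S genes (1.42).

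G1/S genes rose in 28 of 38 cases and fell in 1, Mcm10 (-1.23), with a median difference of 1.29. The smallest p-values were those of the licensing factor Cdt1 (2.00 ± 0.16), the helicase subunits Mcm3 (2.10 ± 0.20) and Mcm7 (1.53 ± 0.15) and cyclin E2 (Ccne2, 2.84 ± 0.27). Of 54 other measured mitotic genes 28 rose and 0 fell, with a median of 0.93, and this count was 17 when either BPD 23 or BPD 28 was dropped. They include Gtse1 (2.77 ± 0.23), which acts on microtubules and p53, Stil (2.29 ± 0.22) of centriole duplication, Zwilch (2.12 ± 0.23) of the kinetochore, and Cdk1 (2.75 ± 0.31), the kinase that drives entry into mitosis. Its partner cyclin A2 (Ccna2) rose by 1.35 ± 0.23.

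Markers of other cells are given here because several differed between the same livers. Of 21 macrophage markers 9 rose and 0 fell, with summed signals of 27395 to 54079 in BPD and 6837 to 22189 in GFP livers. With 1 liver dropped the count was 4 (BPD 23), 2 (BPD 28), 5 (GFP 22), 5 (GFP 31) or 14 (GFP 29). Of 11 neutrophil markers 4 rose (sums of 9861 to 19881 against 1590 to 3911), with 2 when BPD 28 was dropped and 7 when BPD 36 was. Lcn2, which hepatocytes also make in the acute phase, gave 49.5% to 83.5% of each neutrophil sum, and without it the sums were 2065 to 8583 against 647 to 1022. Matrix markers rose in 4 of 16 cases (8952 to 27661 against 6242 to 7327), with 2 when BPD 28 was dropped and 13 when BPD 36 was. Liver 36 was the lowest BPD liver in 19 of the 21 macrophage, 10 of the 11 neutrophil and all 16 matrix markers. Among 11 erythroid markers 5 rose and 1 fell, with sums of 4917 to 7396 against 4785 to 5406, and Hemgn (3.66 ± 0.32), Slc4a1 (2.99 ± 0.38) and Rhag (2.13 ± 0.33) rose while Alas2 fell by 1.62. Alas2 gave up to 75.1% of an erythroid sum, and without it the sums were 3468 to 5980 against 1345 to 1824.

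Of 18 T and NK cell markers 2 rose (sums of 2332 to 3993 against 1541 to 2649), with 1 when BPD 23, BPD 28, GFP 22 or GFP 31 was dropped and 5 when GFP 29 was. Of 9 B and plasma cell markers 0 passed in limma and 1 had an unadjusted p under 0.05 (sums of 801 to 1693 against 668 to 925). After adjustment 1 of 13 endothelial markers was called higher (3543 to 5312 against 2974 to 4862), as were 2 of 8 cholangiocyte markers (1636 to 2428 against 243 to 369). Zap70 gave up to 60.1% of a T and NK cell sum and Cd24a up to 78.0% of a cholangiocyte sum, and without them the sums were 1937 to 2708 against 764 to 1672 and 359 to 946 against 172 to 238. The endothelial count was 0 when BPD 23, BPD 28 or GFP 22 was dropped, and the cholangiocyte count was 4 when BPD 36 was. In none of these lists did a marker lie below the added constant on all 6 arrays. Hepatocyte markers fell in 14 of 17 cases, with sums of 184151 to 198725 against 267127 to 284666, but in 8 under the deposited scaling and 3 after quantile normalization. That count was 7 when BPD 28 or GFP 22 was dropped, 9 for BPD 36 and 6 for GFP 31. The part of these cell types in the rise of the mitotic genes was not tested. The log2 ratio of 3′ to 5′ Gapdh signal, a sign of RNA integrity, was -0.21, -0.44 and -0.42 in BPD livers and -0.35, -0.33 and -0.15 in GFP livers. With it as a covariate 41 of the 48 genes were called higher, against 512 of all 12393 genes.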

How the data were processed

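Liver RNA of 3 BPD and 3 GFP mice was measured on 1-colour arrays, 1 mouse per array. The deposited intensities are linear MAS5 signals, per the submitters' processing notes; no MAS5 version is named there. In the deposited table the trimmed mean intensity is 499.9 on each array. Controls (64 probe sets) were left out, and 0 columns were unused. Of 22626 probe sets, 20380 have 1 symbol in the platform annotation, 691 several and 1555 none.

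Signals were analysed as log2(signal + 16.3), the constant being 10% of the median, and centred on each array's median, since medians differed 1.46-fold. Groups were compared with limma 3.58.1 in R 4.3.3 (lmFit, eBayes with intensity trend, 2-sided, 4 residual degrees of freedom), adjusted by Benjamini-Hochberg over all 22626 probe sets with no filter on low signal, and the fit was tested on simulated data. Errors of log2 differences are SE of this fit. A gene was represented by its probe set with the highest mean over the 6 arrays, and probe sets were counted besides. The number of arrays limits the precision. No batch is named in the labels. Alternatives were the scaling, the constant, a filter on low signal, robust and weighted fits, the choice of probe set, the Gapdh ratio as a covariate and leaving out each mouse.

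Members and gene lists were chosen with earlier results of these data known, so their counts are descriptions. All members could be named, and from every other list up to 4 genes with the smallest p, plus Ccna2 and Cdk1 of the cell cycle lists; Mcm10, Alb and Zap70 were named after their values were seen. Promoters are from the RefSeq table of GRCm38.p6, in which 39 members matched by symbol.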

Additional observations from a re-analysis of the deposited data

How the results depend on the processing

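No paired analysis was possible because the mouse numbers are not shared between the groups. Over the 16 alternatives the number of mitotic genes called higher lay between 34 and 44, that called lower was 0 in each, and 35 of the 48 genes kept their direction and their side of the threshold in every alternative that measured them. These 35 include Zwint, Foxm1 and Cdc25c, which were never called. Of the called genes, 12 lost their call in at least 1 alternative. The count called higher was 34 to 44 with 1 mouse left out. With probe sets of the s and x kind set aside, 46 genes were measured and 40 called higher, against 671 of all 12106 genes then measured. The filter on low signal kept 38 genes, of which 35 were called. That filter used the mean signal over both groups, so a gene low in GFP livers could pass it through its BPD signal. The GFP mean was under the filter level in 25 of the 48 genes. The calls after filtering therefore cannot show whether the rise depends on low signal in the controls. The median difference of the 48 genes was 1.98 with the deposited scaling, 1.48 with a constant of 30% of the median and 1.88 with one of 3%, and 1.59 to 1.85 with a mouse left out. The median of all genes was 0.07 with the deposited scaling, -0.07 with quantile normalization and -0.23 after centring. Other mitotic genes called numbered 17 to 28 with a mouse left out. Bub3 turned to -0.14 when s and x probe sets were set aside and to -0.0780 with the mean over probe sets; both alternatives use other probe sets of the gene. Signal near the added constant limits the fitted size, and 8 genes had a GFP value below it. Dim genes without such a value depended on the constant too. Ttk was at 2.13 with the smaller constant and 1.21 with the larger one.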
